A study of Mus musculus with 6 samples.

Results

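The major urinary protein (Mup) genes form a cluster on mouse chromosome 4, and 10 of them, Mup1, Mup2, Mup3, Mup7, Mup10, Mup11, Mup12, Mup17, Mup20 and Mup21, were followed here by matching their symbols in a table of 48699 rows. A further 11 rows carry a Mup symbol with a number and are given beside them. Liver RNA was measured in 3 hepatocyte-specific Fxr-/- Shp-/- double knockout mice and in 3 control mice with the genotype Fxrfl/fl Shpfl/fl, in which both genes are flanked by recombination sites but not deleted. FXR is the bile acid receptor encoded by Nr1h4, and SHP, encoded by Nr0b2, is a corepressor that FXR induces. All 6 mice were C57BL/6 males of 10 to 12 weeks, fasted for 8 to 10 hours, and the column names of the deposited table mark all 6 as chow. The labels used here do not name the Cre line that deletes the alleles, and the floxed mice are the only comparison group. Values are FPKM, fragment numbers scaled to transcript length and to the mapped fragments of the library. Whole liver was sequenced, so fewer cells of a type and less RNA per cell cannot be told apart.

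Major urinary proteins are small secreted lipocalins that leave the liver in the blood and are excreted in the urine, where they bind volatile pheromones and release them slowly. Mup20 encodes darcin, a urinary protein of male mice that attracts females. In mouse liver the genes are expressed more in males than in females, under pulsatile growth hormone acting through its receptor and STAT5B. Most central genes of the cluster are recent, almost identical duplicates, whereas Mup3, Mup20 and Mup21 lie toward its end and are more diverged. Mup4 and Mup5 are known mainly from glands other than liver.

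Coding sequence sorted the 10 genes into a near-identical group and a divergent one. Of the 22 Mup genes annotated by GENCODE M21, 16 differed from Mup1 at 10 or fewer coding bases, and any pair of these 16 differed at 1 to 10 bases, with an identity of 98.1% to 99.8%. Mup1, Mup2, Mup7, Mup10, Mup11, Mup12 and Mup17 belong to this group. Mup3, Mup20 and Mup21 differed from its genes at 47 to 91 bases, an identity of 83.1% to 91.3%, and Mup3 and Mup21 differed from each other at 25 bases. A stretch of 72 coding bases is printed for each gene to show how little sequence separates the near-identical copies. The stretches are in GRCm38 from GENCODE M21, on the minus strand, 5′ to 3′, and capitals mark bases that differ from Mup1.
Mup1 chr4:60501773-60501844: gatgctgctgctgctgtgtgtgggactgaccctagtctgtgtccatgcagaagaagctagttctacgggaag
Mup2 chr4:60139710-60139781: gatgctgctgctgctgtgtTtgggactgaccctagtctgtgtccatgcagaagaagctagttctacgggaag
Mup3 chr4:62087143-62087214: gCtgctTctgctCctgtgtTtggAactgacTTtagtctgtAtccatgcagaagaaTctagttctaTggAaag
Mup7 chr4:60070224-60070295: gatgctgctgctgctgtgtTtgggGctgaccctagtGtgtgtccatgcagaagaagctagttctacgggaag
Mup10 chr4:60582012-60582083: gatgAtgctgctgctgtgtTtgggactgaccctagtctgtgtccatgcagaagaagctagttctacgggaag
Mup11 chr4:60662221-60662292: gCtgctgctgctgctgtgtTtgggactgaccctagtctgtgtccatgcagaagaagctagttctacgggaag
Mup12 chr4:60741139-60741210: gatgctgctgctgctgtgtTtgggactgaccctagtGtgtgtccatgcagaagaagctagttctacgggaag
Mup17 chr4:61595684-61595755: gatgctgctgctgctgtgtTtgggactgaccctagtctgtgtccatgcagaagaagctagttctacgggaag
Mup20 chr4:62053970-62054041: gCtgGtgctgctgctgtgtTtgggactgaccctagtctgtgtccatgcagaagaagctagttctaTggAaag
Mup21 chr4:62150673-62150744: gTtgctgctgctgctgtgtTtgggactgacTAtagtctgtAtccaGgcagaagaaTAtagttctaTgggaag
The 10 stretches comprised 9 distinct sequences, and those of Mup2 and Mup17 were the same. Mup17 and Mup2 differed from Mup1 here at 1 base each, Mup20 at 5, Mup21 at 9 and Mup3 at 11.

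How far a fragment can be assigned to a single gene follows from this. Of all 100-base windows of its transcript, Mup2 shared 97.3% exactly with another Mup gene or pseudogene, Mup1 87.2%, Mup7 87.1%, Mup10 85.4%, Mup11 83.5%, Mup12 77.5% and Mup17 59.4%. The corresponding shares were 38.8% for Mup20, 4.5% for Mup21 and 2.94% for Mup3. None of the sources used here says how fragments that map to several copies were treated by the authors. The FPKM of a single near-identical gene is therefore uncertain, while those of Mup3 and Mup21 rest largely on sequence of their own.

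The upstream sequences are printed for Mup17 and Mup2, near-identical genes whose differences between genotypes were unlike in size, and for Mup3 and Mup21, divergent genes closest to each other. They are the 120 bases before and the 7 bases of the motif TATATAA, in GRCm38.p6 from RefSeq, minus strand, 5′ to 3′, with the motif in capitals.
Mup17 chr4:61595851-61595977: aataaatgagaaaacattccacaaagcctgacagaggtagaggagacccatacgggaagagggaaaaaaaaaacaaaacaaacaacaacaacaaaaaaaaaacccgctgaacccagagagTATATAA
Mup2 chr4:60139877-60140003: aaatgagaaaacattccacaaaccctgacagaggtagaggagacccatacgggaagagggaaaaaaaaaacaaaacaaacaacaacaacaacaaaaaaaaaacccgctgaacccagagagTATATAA
Mup3 chr4:62087322-62087448: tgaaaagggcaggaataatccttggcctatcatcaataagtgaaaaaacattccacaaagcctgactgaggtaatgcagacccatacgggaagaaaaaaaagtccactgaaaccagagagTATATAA
Mup21 chr4:62150843-62150969: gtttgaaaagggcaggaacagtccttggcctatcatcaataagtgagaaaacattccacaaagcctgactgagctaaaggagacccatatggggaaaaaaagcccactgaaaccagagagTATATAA
Promoters of 300 bases, 250 before and 50 after the start, were found for 7 of the 10 genes, those other than Mup1, Mup12 and Mup20. TATATAA, searched on both strands, was present in 6 of these 7, the exception being Mup7, and in 7 of 7 other Mup promoters, against 3.24% of all 32851 promoters. TTCNNNGAA, the form of site that STAT5 dimers bind, was present in 0 of 7 and in 0 of 7 other Mup promoters, against 8.3% of all. The Mup promoters belong to duplicated genes, so these counts are not of independent promoters. TATATAA began at -31 to -25 from the annotated start in most, but at -11 in Mup3, -8 in Mup21, -2 in Mup11 and 12 in Mup14. The windows are therefore not placed alike on all these genes. Absence of either motif says only that these letters are not in this window. The Mup7 window ends farther from its coding sequence than TATATAA lies in the genes printed above, so that position was not searched in Mup7.

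The deleted genes followed the labels. Nr1h4 had 21.1, 15.5 and 22.04 FPKM in double knockout livers, against 59.8, 71.8 and 68.0 FPKM in controls (limma adjusted p = 0.0172), and Nr0b2 had 0.216, 0.0734 and 0.293 FPKM, against 14.7, 17.6 and 18.7 FPKM (limma adjusted p = 0.000277). The Nr1h4 call was lost without control replicate 1 or 2 or any 1 double knockout library (limma adjusted p between 0.0616 and 0.133) and with no filter on low values (0.0654), with groups that did not overlap. Depth read from the smallest FPKM steps was 13.2 to 14.1 fragments, times 1e6, per library. Control replicate 3 stood apart: its correlation with the other controls over tested genes was 0.952 and 0.955, against 0.983 between those controls. Fos and Saa1 were looked at after their values were seen. Fos, an immediate early gene, had 0.723, 0.762 and 2.60 FPKM in double knockout livers, against 0.220, 0.103 and 53.7 FPKM in controls. Saa1, an acute phase gene of hepatocytes, had 621, 5462 and 5049.95 FPKM in double knockout livers, against 125, 129.7 and 10483 FPKM in controls, so 1 control and 2 double knockout livers were high.

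Mup RNA made up a few percent of all FPKM in both genotypes. The 10 genes summed to 30140.4, 25587 and 17633 FPKM in double knockout livers, 4.38%, 4.19% and 2.53% of all FPKM, against 29196, 31574 and 32692 FPKM in controls, 4.15%, 4.001% and 3.88% of all FPKM. The mean sum was 24453 ± 6330.5 FPKM in double knockout livers and 31154 ± 1785 FPKM in controls (SD, n = 3 each), a log2 ratio of -0.35. That ratio was -0.12 for the share of all FPKM, -0.53 without double knockout replicate 1 and -0.16 without double knockout replicate 3. The ranges of the sums overlapped, because double knockout replicate 1 lay above control replicate 1, and double knockout replicate 3 was the lowest library. Of the 10 genes, 8 had their lowest value in double knockout replicate 3, and 9 had their highest value in a control, 5 of them in control replicate 3. Near-identical genes may share fragments, so these counts are not of separate observations. The corresponding shares over all tested genes were not computed.

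Within the family the order of the levels differed in places. In double knockout livers the means ran Mup3, Mup7, Mup17, Mup20, Mup11, Mup1, Mup21, Mup12, Mup2 and Mup10, from 10111 to 4.81 FPKM. In controls the order was Mup3, Mup7, Mup20, Mup17, Mup11, Mup21, Mup1, Mup12, Mup2 and Mup10, from 15572 to 4.29 FPKM. Mup17 and Mup20 exchanged places, as did Mup1 and Mup21. In double knockout livers the ranges overlapped for neighbours Mup7 with Mup17, Mup17 with Mup20, Mup11 with Mup1, Mup1 with Mup21 and Mup21 with Mup12. Within each single double knockout liver these pairs still kept the order of their means, except Mup1 with Mup21. In controls the ranges overlapped for Mup7 with Mup20, Mup17 with Mup11, Mup11 with Mup21 and Mup21 with Mup1. Of these pairs, only Mup7 with Mup20 kept its order in every control. By its FPKM and length, Mup10, the lowest of the 10, rested on about 35 to 80.0 fragments per library, and Mup3 on about 110000.0 to 270000.0.

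**Figure D1:**
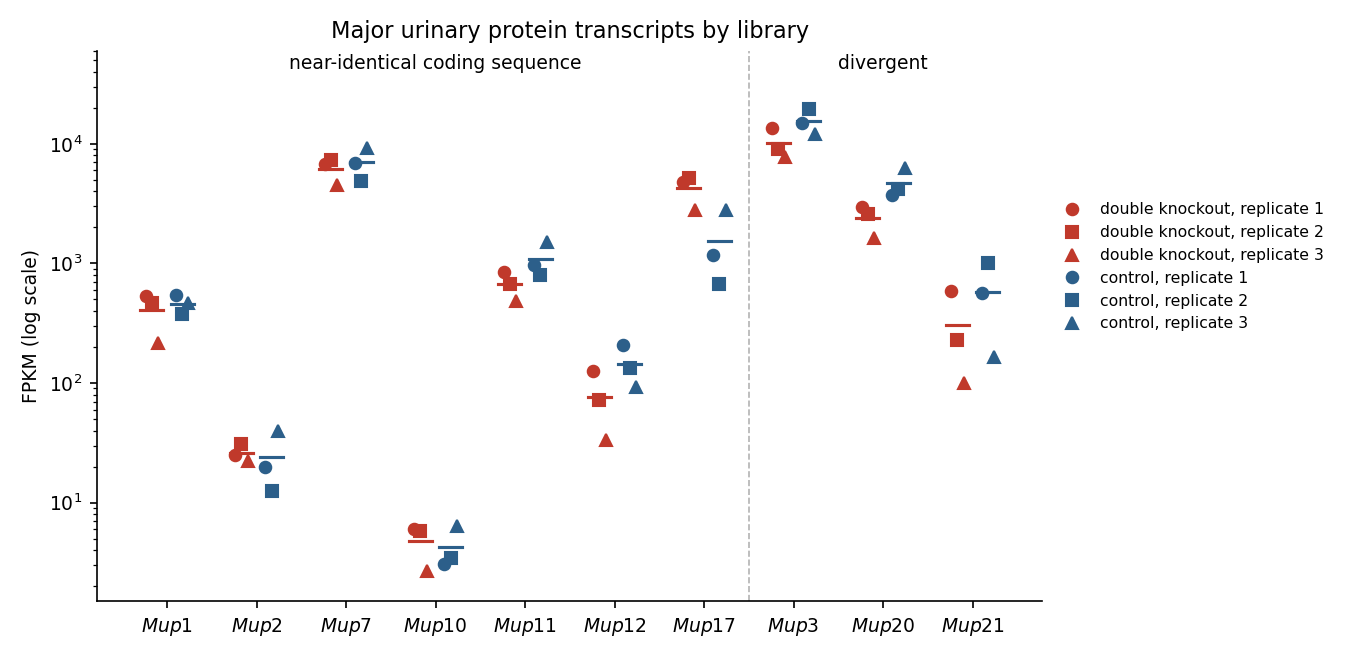
FPKM on a log axis for the 10 Mup genes, with the 3 double knockout libraries (red) left of the 3 controls (blue), 1 symbol per replicate number and a line at each group mean. Mup17 lies above all controls and Mup20 below all controls, while the other 8 genes overlap.

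No member passed the threshold. Differences were tested with limma on log2(FPKM + 1) over the 11810 genes averaging 0.5 FPKM or more, and a gene was called at a Benjamini-Hochberg adjusted p under 0.05. Of the 10 genes, 0 were called, where 0.313% of all tested genes were called in either direction, 0.169% higher and 0.144% lower in double knockout livers. The unadjusted p was under 0.05 for 2 of the 10, against 14.9% of all tested genes. Of the 10, 3 had a positive and 7 a negative log2 fold change, with a median of -0.46 against -0.01 over all tested genes; with FPKM rescaled to the same sum in each library, the split was 4 to 6 because Mup7 turned positive.

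Of the members with a higher mean in double knockout livers, only Mup17 had groups that did not overlap. It had 4762, 5217 and 2788 FPKM there, against 1181, 669.6 and 2774 FPKM in controls. All double knockout values lay above all controls, as was the case for 11.3% of tested genes, but the lowest double knockout liver and the highest control were almost level. The means were 4256 ± 1291 and 1541 ± 1097 FPKM (SD, n = 3 each). This is 1.66 on the log2 scale (SE 0.52, 95% interval 0.45 to 2.87; limma adjusted p = 0.230). Control replicate 3 changed the call: without it the log2 fold change was 2.21 and the limma adjusted p was 0.0436, where 2.05% of all genes were called. With libraries weighted by their agreement the log2 fold change was 2.25 with a limma adjusted p of 0.0231. Those weights called 326 of all tested genes higher, against 20 without weights.

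Mup20, which encodes darcin, was lower in every double knockout liver. It had 2981, 2570.0 and 1629 FPKM in double knockout livers, against 3743, 4174 and 6257 FPKM in controls. The groups did not overlap, as for 11.6% of tested genes in that direction. The means were 2393 ± 693 and 4725 ± 1345 FPKM (SD, n = 3 each). On the log2 scale the difference was -0.99 (SE 0.32, 95% interval -1.74 to -0.24; limma adjusted p = 0.240), and it stayed negative without any 1 library, between -1.17 and -0.73.

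Mup3, the most abundant Mup transcript, had 13443, 9068 and 7823 FPKM in double knockout livers, against 15029, 19521 and 12167 FPKM in controls. Only double knockout replicate 1 reached into the control range. The fitted difference was -0.63 on the log2 scale (SE 0.34, 95% interval -1.42 to 0.15; limma adjusted p = 0.419). Mup21, the closest relative of Mup3, had 589, 227 and 99.5 FPKM in double knockout livers, against 561, 1014 and 166 FPKM in controls. Its values spread about as widely within each genotype as between them, and its log2 fold change was -0.94 (SE 0.79, 95% interval -2.79 to 0.91; limma adjusted p = 0.603).

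The other near-identical genes overlapped between genotypes. Mup7, the most abundant of them, had 6832, 7255 and 4529 FPKM in double knockout livers, against 6932, 4873 and 9217 FPKM in controls (log2 fold change -0.16, 95% interval -0.94 to 0.63; limma adjusted p = 0.855). Mup1 had 535, 464 and 216 FPKM, against 543, 376 and 466 FPKM (log2 fold change -0.28, 95% interval -1.09 to 0.54; limma adjusted p = 0.738). For both genes the double knockout livers spanned the control mean, and their intervals include differences in either direction.

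Mup11 had 841, 678 and 489.6 FPKM in double knockout livers, against 977, 796 and 1507 FPKM in controls (log2 fold change -0.69, 95% interval -1.40 to 0.02; limma adjusted p = 0.346). Mup12 had 126, 71.7 and 33.1 FPKM in double knockout livers, against 209, 134 and 92.5 FPKM in controls (log2 fold change -1.03, 95% interval -2.17 to 0.11; limma adjusted p = 0.374). Both were lower on average, with double knockout replicate 1 inside the control range. Mup2 had 25.2, 30.7 and 22.4 FPKM in double knockout livers, against 19.9, 12.5 and 39.9 FPKM in controls (log2 fold change 0.25, 95% interval -0.62 to 1.13; limma adjusted p = 0.779). Mup10 had 5.99, 5.76 and 2.68 FPKM in double knockout livers, against 3.06, 3.47 and 6.33 FPKM in controls (log2 fold change 0.13, 95% interval -0.62 to 0.88; limma adjusted p = 0.879). The control values of Mup2 reached both below and, in replicate 3, above those of the double knockout livers, and control replicate 3 was also the highest library for Mup10, with double knockout replicate 3 the lowest.

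**Figure D2:**
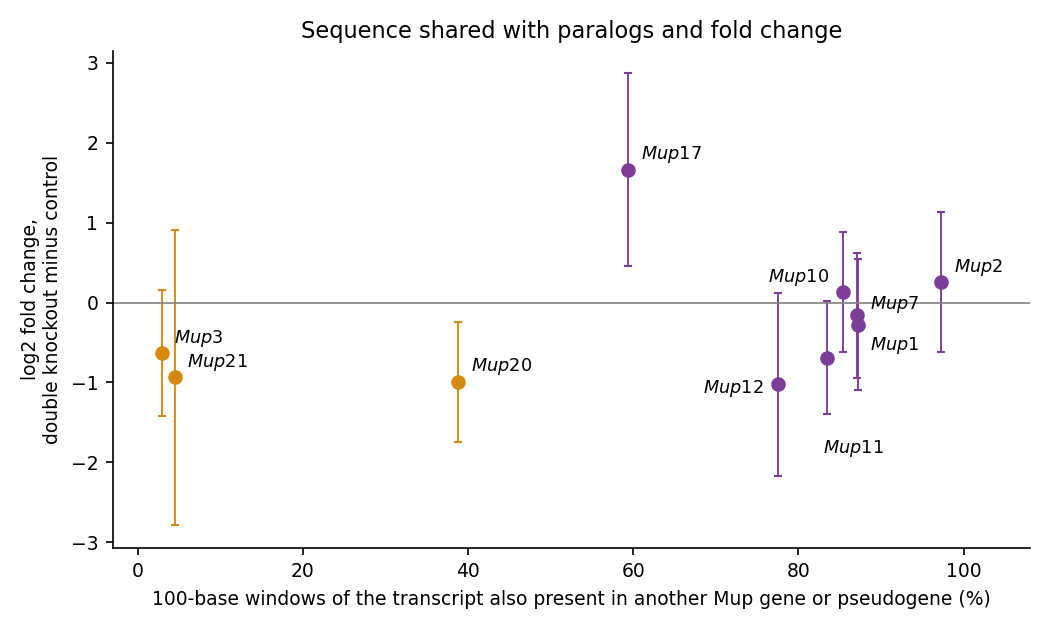
The log2 fold change (double knockout minus control, 95% interval) of the 10 genes against the percentage of 100-base transcript windows found in another Mup gene or pseudogene, with the near-identical genes in purple and the divergent genes in orange. Mup3, Mup20 and Mup21 have the lowest shares and negative values, and Mup17, at 59.4%, has the lowest share among the near-identical genes and the highest value.

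The authors' deposited table, whose p-values come from their own test, called 3 of the 10 genes. In the authors' deposited table Mup17 was higher in double knockout livers, with a log2 ratio of 1.47 and q = 0.00569, where 2.85% of its tested genes were called higher. In the authors' deposited table Mup12 (log2 ratio -0.92, q = 0.00719) and Mup21 (log2 ratio -0.93, q = 0.0281) were lower, where 1.73% of its tested genes were called lower. In the authors' deposited table the q for Mup20 was 0.0910. The group means in the authors' deposited table are those of the FPKM used here, so the difference in calls lies in the tests.

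Of the neighbours of Mup17 in the cluster, Mup16, Mup18 and Mup19 were lower in level, while the range of Mup15 overlapped that of Mup17. Mup15, Mup16, Mup18 and Mup19 had positive log2 fold changes too. Of their 100-base windows, 97.3% in Mup15, 80.1% in Mup16, 87.1% in Mup18 and 100% in Mup19 were shared with another Mup gene or pseudogene. These rows may therefore share fragments and cannot be read as separate observations. Of the 11 other Mup rows 10 were tested, 9 had a positive log2 fold change and 0 were called by limma, while the authors' deposited table called 5 higher (Mup9, Mup15, Mup16, Mup18 and Mup19) and 0 lower. Mup18 had 85.2, 75.5 and 68.4 FPKM in double knockout livers, against 11.4, 9.42 and 28.8 FPKM in controls (log2 fold change 2.30 ± 0.37 SE; limma adjusted p = 0.0731). Its groups did not overlap, as for 11.3% of tested genes in that direction. Its limma adjusted p was 0.00153 without control replicate 3, 0.0289 on rescaled FPKM and 0.00211 with library weights. Over all genes, 154 (1.31%) were called higher without control replicate 3, 53 on rescaled FPKM and 326 with library weights, against 20 without such changes. Mup15 had 3439, 4721 and 2469 FPKM in double knockout livers, against 815, 393 and 3207 FPKM in controls (log2 fold change 1.76; limma adjusted p = 0.312). Mup19 had 146, 126 and 70.1 FPKM, against 28.5, 18.6 and 93.5 FPKM (log2 fold change 1.53; limma adjusted p = 0.287). In both, control replicate 3 lay within the double knockout range, and without it their limma adjusted p was 0.0378 each; with library weights it was 0.0297 for Mup15 and 0.0235 for Mup19. The log2 fold change was 1.00 for Mup16, 1.38 for Mup9, 0.83 for Mup8, 0.73 for Mup6, 0.49 for Mup13, 0.09 for Mup5 and -0.01 for Mup14, with limma adjusted p between 0.176 and 0.994. Mup14, at 3468 ± 960.2 FPKM in double knockout livers and 3643 ± 1685 FPKM in controls (SD, n = 3 each), had the highest mean of these rows over the 6 libraries, and Mup15 the highest in double knockout livers. Mup4 averaged 0.0801 FPKM over the 6 libraries and was not tested.

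**Figure D3:**
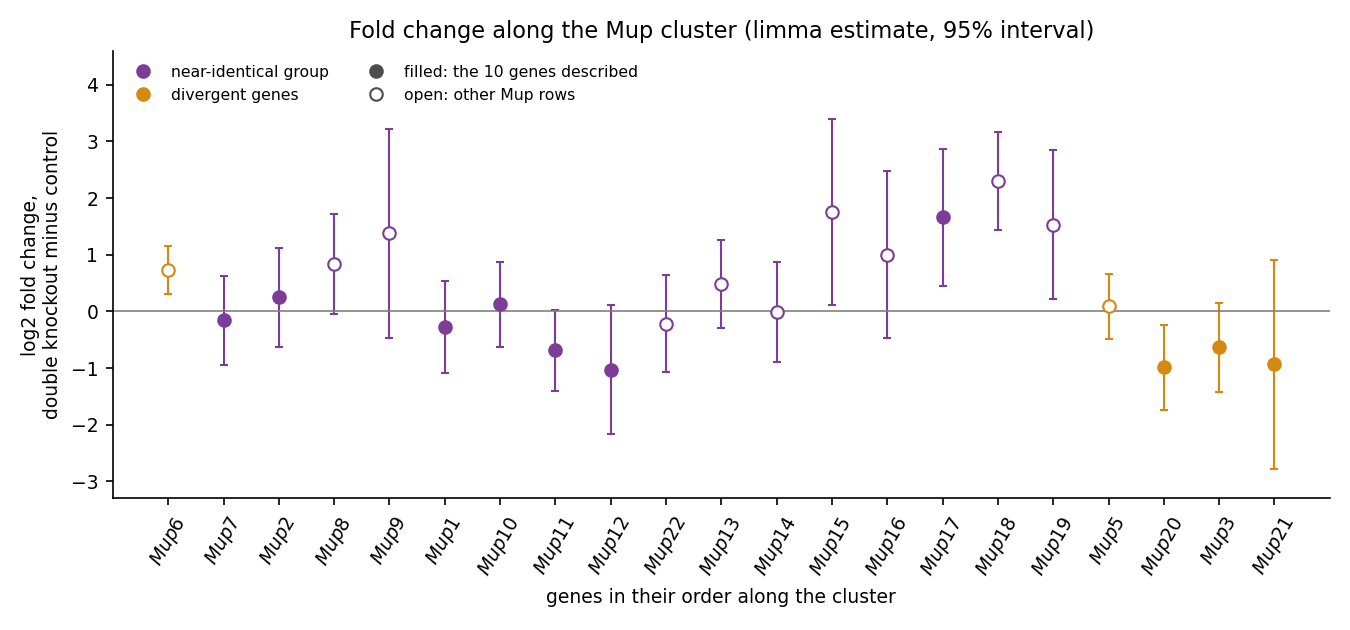
The log2 fold change (double knockout minus control, limma, 95% interval) of 21 Mup genes averaging 0.5 FPKM or more, in their order along the cluster. Mup15, Mup16, Mup17, Mup18 and Mup19 lie next to each other at 1.00 to 2.30, and Mup20, Mup3 and Mup21 at the right end lie at -0.99 to -0.63.

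Because near-identical copies share fragments, their sum depends less on how fragments were divided. The 16 near-identical genes summed to 21049.6, 24009.8 and 13613 FPKM in double knockout livers, against 14179, 9857 and 23767 FPKM in controls. These sums overlapped widely, and their log2 ratio of group means was 0.30, or 0.55 as a share of all FPKM. The sum of Mup3, Mup20 and Mup21 was 17012, 11865 and 9551 FPKM in double knockout livers, against 19332, 24709 and 18589.6 FPKM in controls. In FPKM every double knockout liver was lower than every control, with a log2 ratio of group means of -0.70. As a share of all FPKM the sum was 2.47%, 1.94% and 1.37% in double knockout livers, against 2.75%, 3.13% and 2.21% in controls. On that scale the groups overlapped, since double knockout replicate 1 lay above control replicate 3, and the log2 ratio was -0.48.

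The make-up of the near-identical sum can be described through Mup15 to Mup19. These genes were grouped after their higher values in double knockout livers were seen, so the direction of their share was fixed by that choice, and the division of fragments among copies is uncertain. They made up 41.8%, 44.0% and 40.8% of it in double knockout livers, against 15.5%, 11.6% and 27.0% in controls. The ratio of Mup17 to Mup7 was 0.697, 0.719 and 0.616 in double knockout livers, against 0.1704, 0.137 and 0.301 in controls. Mup17 was already known to be higher in every double knockout liver, so the direction of this ratio is no separate support. The ratio of Mup17 to Mup3 did not overlap between genotypes either, while those of Mup3 to Mup20 and of Mup21 to Mup3 overlapped. The shares of Mup15 to Mup19 and the ratios of Mup17 to Mup7 were each close across the double knockout livers. Control replicate 3 was the control nearest to them. The other near-identical genes summed to 12243, 13457 and 8065 FPKM in double knockout livers, against 11982, 8709.6 and 17349 FPKM in controls. These sums overlapped.

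**Figure D4:**
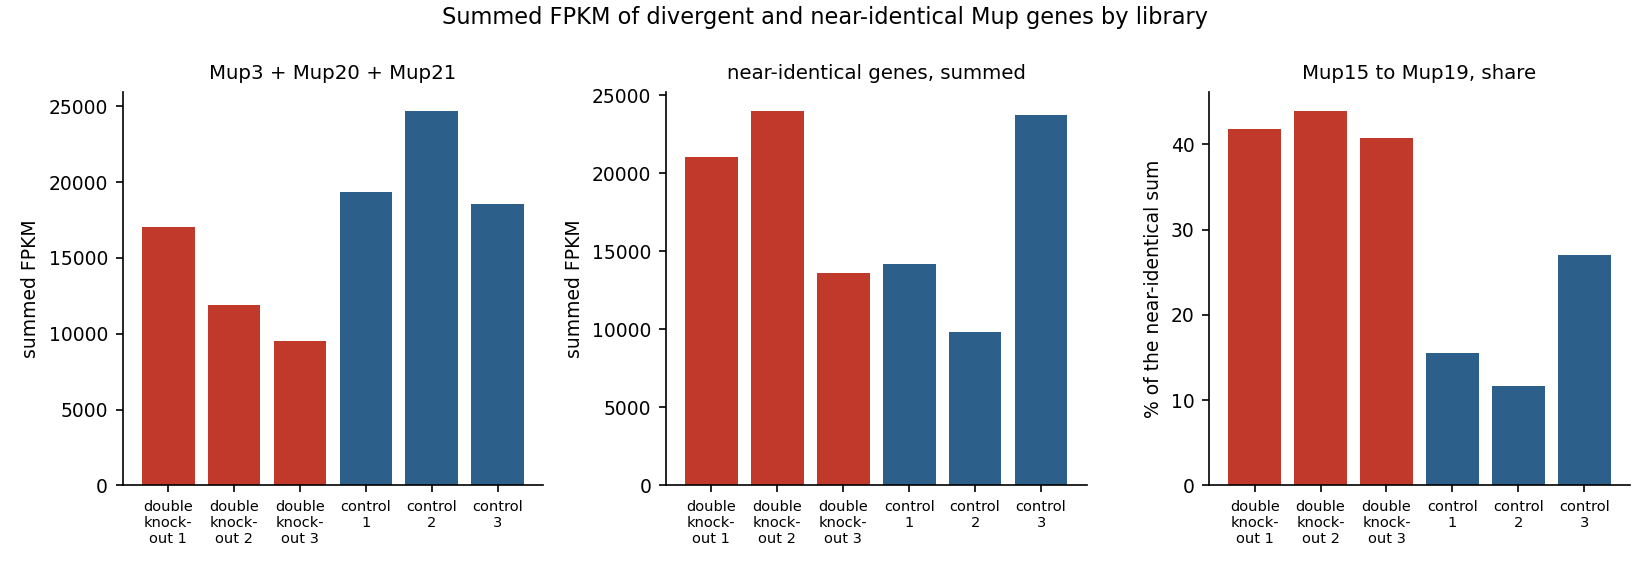
Summed FPKM by library for Mup3, Mup20 and Mup21 (left) and for the 16 near-identical genes (middle), and Mup15 to Mup19 as a percentage of the near-identical sum (right), with the double knockout livers in red and the controls in blue. The left bars are lower in all double knockout livers, a separation not seen when the sum is taken as a share of all FPKM, the middle bars overlap, and the right bars are 40.8% to 44.0% in double knockout livers and 11.6% to 27.0% in controls.

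Growth hormone signalling genes, from the receptor to its targets and feedback inhibitors, held 0 calls among 12 tested. Of these 12, 6 had positive and 6 negative log2 fold changes. Igf1, the main endocrine target of growth hormone, had 334, 342 and 419 FPKM in double knockout livers, against 506, 532 and 566 FPKM in controls (log2 fold change -0.56; limma adjusted p = 0.217). Stat5b, the transcription factor that growth hormone activates, had 10.8, 11.3 and 9.13 FPKM in double knockout livers, against 8.29, 6.55 and 7.40 FPKM in controls (log2 fold change 0.44; limma adjusted p = 0.267). For neither gene did the groups overlap, with Igf1 lower and Stat5b higher in double knockout livers. The same held for 11.6% of tested genes in the lower and 11.3% in the higher direction. Ghr, the growth hormone receptor, had 257, 222 and 237 FPKM in double knockout livers, against 212, 229 and 312 FPKM in controls (log2 fold change -0.06; limma adjusted p = 0.911). Socs2, a feedback inhibitor of the receptor, had 9.86, 8.42 and 3.55 FPKM, against 8.82, 12.8 and 12.0 FPKM (log2 fold change -0.64; limma adjusted p = 0.405). Ghr and Socs2 overlapped between genotypes.

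Among 15 transcription factors and receptors known to act on Mup genes or on liver genes at large, 0 were called, with 7 positive and 8 negative values. Bcl6, a repressor at STAT5 sites in male liver, had 3.70, 7.92 and 3.38 FPKM in double knockout livers, against 2.42, 11.5 and 15.7 FPKM in controls (log2 fold change -0.65; limma adjusted p = 0.622). Zhx2, a regulator of Mup genes in mouse liver, had 2.88, 3.50 and 3.48 FPKM in double knockout livers, against 6.65, 2.47 and 2.70 FPKM in controls (log2 fold change -0.11; limma adjusted p = 0.892). Control replicate 1 alone was high for Zhx2. Cebpa and Hnf4a, the most abundant on the list, had log2 fold changes of -0.04 and -0.25 (limma adjusted p 0.942 and 0.583).

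Other genes with male-biased liver expression did not move as a block. Of 16 tested, 10 had positive and 6 negative log2 fold changes, with a median of 0.08. Of the 16, 2 were higher and 4 lower in every double knockout liver, against 11.3% and 11.6% of tested genes. Only 1 of the 16 was called, and it was lower. It was Cyp4a12b, a fatty acid hydroxylase, at 4.12, 2.97 and 1.86 FPKM in double knockout livers, against 59.7, 39.2 and 18.6 FPKM in controls (log2 fold change -3.23 ± 0.41 SE; limma adjusted p = 0.0346). This call was lost without either of control replicates 1 and 2 and without any 1 double knockout library, and with no filter on low values (limma adjusted p = 0.106). Cyp4a12b has a near-identical neighbour, Cyp4a12a, with which fragments may be shared. Cyp4a12a, the more abundant, had 241, 105 and 119 FPKM in double knockout livers, against 177, 128 and 35.0 FPKM in controls. Its log2 fold change was 0.63 (limma adjusted p = 0.644). The fall of Cyp4a12b is thus not a fall of both copies, and how fragments were divided between them was not tested. Of 20 female-biased genes 11 were tested, 10 positive and 1 negative, with a median of 0.86. Of the 11, 5 were higher in every double knockout liver, against 11.3% of tested genes, and 0 were lower in every one. Only 1 of the 11 was called, and it was higher. It was Ntrk2, a neurotrophin receptor, at 3.26, 6.17 and 5.45 FPKM in double knockout livers, against 0.0406, 0.0754 and 0.0568 FPKM in controls (log2 fold change 2.46 ± 0.22 SE; limma adjusted p = 0.0155). This Ntrk2 call was lost without control replicate 1 or 2 or double knockout replicate 2 or 3, and, with no filter on low values, at a limma adjusted p of 0.0654.

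**Figure D5:**
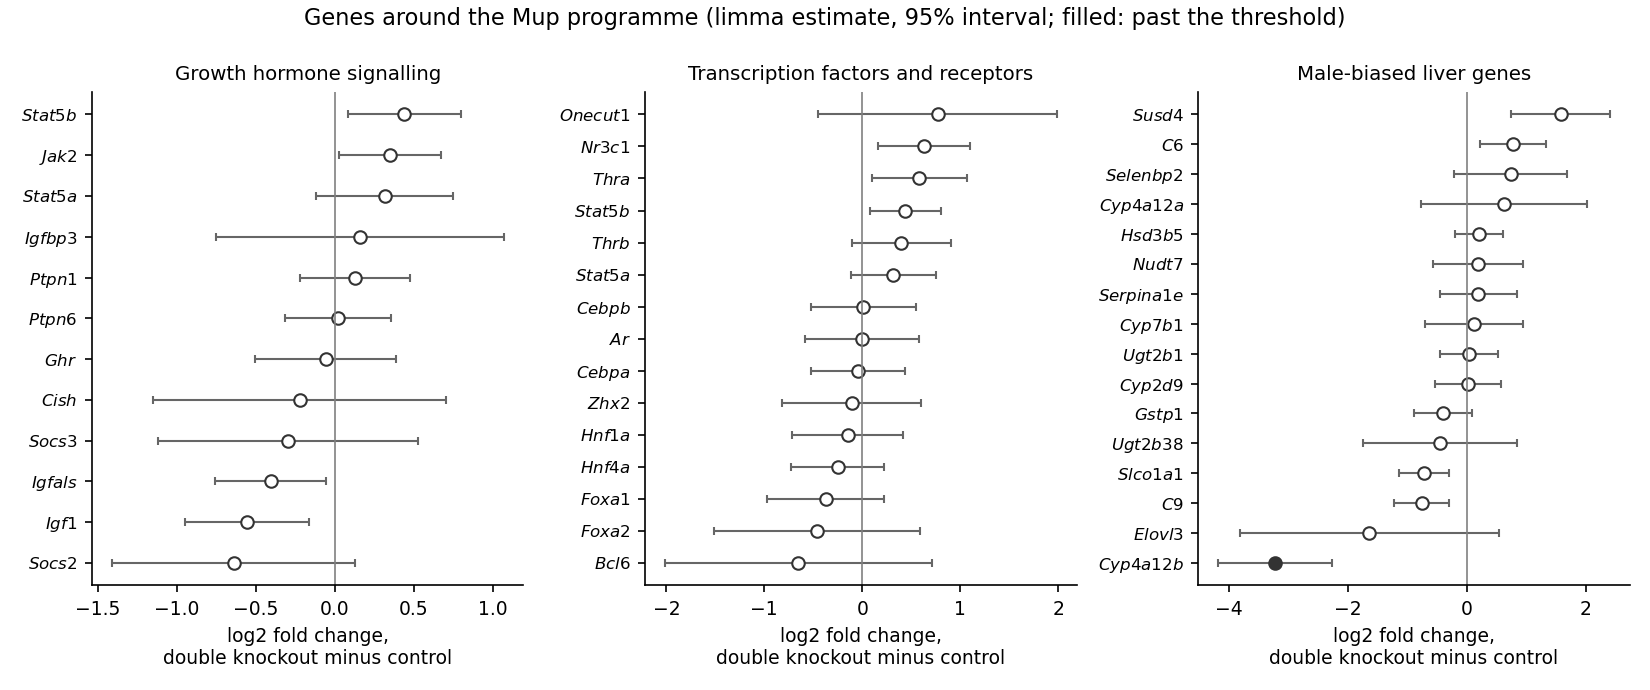
The log2 fold change (double knockout minus control, limma, 95% interval) of growth hormone signalling genes (left), transcription factors and receptors (middle) and male-biased liver genes (right), with filled points past the threshold. Of the 3 lists, Cyp4a12b at -3.23 is the only filled point.

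Other liver lipocalins, the wider protein family of the Mups, held 0 calls among 9 tested, 5 positive and 4 negative, with a median log2 fold change of 0.37. Rbp4, which carries retinol in blood, had 3160.2, 2369.8 and 2692 FPKM in double knockout livers, against 4241, 5302 and 4774 FPKM in controls (log2 fold change -0.80; limma adjusted p = 0.2004). Ambp, the precursor of a plasma lipocalin and a protease inhibitor, had a log2 fold change of -0.30 (limma adjusted p = 0.620). Of 16 other genes for proteins secreted by hepatocytes, 2 were positive and 14 negative, 0 were called, and the median was -0.24. Alb, the serum albumin gene, had 23233, 17009 and 34609 FPKM in double knockout livers, against 37008, 43645 and 42011 FPKM in controls (log2 fold change -0.77; limma adjusted p = 0.381), and Apoa2, an apolipoprotein gene, had a log2 fold change of -0.40 (limma adjusted p = 0.579). Alb, like Mup20 and 11.6% of tested genes, had a lower FPKM in every double knockout liver.

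Markers of other liver cells were measured beside the Mup values. All 8 Kupffer cell markers had positive log2 fold changes and 0 were called, and their sum ranged from 93.8 to 239 FPKM in double knockout livers and from 51.6 to 142 FPKM in controls, highest in double knockout replicate 2. Sinusoidal endothelial markers summed to 36.4 to 69.3 FPKM in double knockout livers and 51.1 to 64.1 FPKM in controls (8 tested, 2 positive, 0 called). Cholangiocyte markers summed to 59.1 to 64.0 FPKM in double knockout livers and 33.8 to 44.2 FPKM in controls (4 of 7 tested, 4 positive, 0 called), but Spp1 alone gave 55.2 to 60.9 FPKM of this in double knockout livers and 31.1 to 42.6 FPKM in controls. Krt19, Sox9 and Epcam were at most 1.54 FPKM, and Krt19 and Sox9 overlapped between genotypes. Epcam was higher in every double knockout liver, as were 11.3% of tested genes. Krt19, Sox9, Epcam and Spp1 were singled out after their values were seen. Stellate cell and fibroblast markers summed to 59.0 to 139.6 FPKM in double knockout livers and 59.7 to 114 FPKM in controls (8 tested, 5 positive, 0 called). Of 7 lacrimal and salivary gland markers, Bpifa2, Prol1, Smr3a, Lpo and Pip were at 0 in all libraries and Aqp5 was at most 0.116 FPKM, while Amy1, which liver also expresses, had a log2 fold change of -0.81 (limma adjusted p = 0.171). The part of the other cell types and of the RNAs Fos and Saa1 in the Mup values was not tested.

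The genes whose levels followed the mean Mup pattern most closely over the 6 libraries were Zfp367, Mier1, Pomgnt1, Tmem80 and Tmem125, as a description without a test. That pattern, the mean deviation of the 10 genes on the log2 scale, was 0.32, 0.02 and -0.74 in double knockout livers and 0.15, -0.04 and 0.29 in controls, so it was set mainly by double knockout replicate 3. Zfp367, a zinc finger gene, had 6.25, 5.75 and 3.803 FPKM in double knockout livers, against 5.68, 5.51 and 6.11 FPKM in controls. Its low value in double knockout replicate 3 follows from its being picked for likeness to this pattern.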

How the data were processed

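Liver RNA from 3 double knockout and 3 control mice was analysed. Per the submitters' processing notes, Cuffdiff 2.2.1, STAR 2.4.2a, Picard 1.119, bcl2fastq 2.17.1.14 and Trimmomatic were used with GRCm38. Per the labels' protocols, libraries came from a stranded mRNA kit. The authors deposited FPKM per gene and library, and a comparison with a p-value and a q-value per gene, per the file headers. Handling of multiply mapping fragments: not given in the sources used here. No column of other samples was present.

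Groups and replicate numbers came from sample titles. limma 3.58.1 in R 4.3.3, with a mean-variance trend, was run on log2(FPKM + 1) for genes averaging 0.5 FPKM or more, with Benjamini-Hochberg adjustment at 0.05. The pseudocount understates changes of low genes. The code was tested on simulated data. Coding sequences were aligned with MAFFT 7.526, and windows and motifs were counted in Python 3.11.15. Depth was read from FPKM steps in genes over 1500 bases. Alternatives were other pseudocounts, filters, scalings and weights, a replicate block, and each library left out. The 10 genes, the marker lists and the alternatives were chosen with earlier results of these data known. Named were the 10 genes, tested Mup rows, genes of each list past the threshold or else its 2 most abundant, 6 growth hormone and Mup regulators, the deleted genes and 5 genes nearest the mean pattern; Amy1, Aqp5 and the markers at 0, Fos, Saa1, Cyp4a12a and the grouping of Mup15 to Mup19 were added after their values were seen. Replicates are single mice, and p-values cover the spread between them.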

Additional observations from a re-analysis of the deposited data

How the results depend on the processing

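Over 14 alternatives, 129 of 140 log2 fold changes of the 10 genes kept their direction and side of the threshold. The number of the 10 called higher was 1 with library weights and 1 without control replicate 3 (Mup17 in both), and leaving out each library gave 0 to 1; none was called lower. Log2 fold changes that turned their sign were all small. With FPKM rescaled to a common sum, Mup7 was 0.066, Mup14 0.21, Ghr 0.17 and Zhx2 0.067. Quantile normalization gave Mup5 -0.019, Mup14 0.14 and Ghr 0.18, and library weights gave Mup7 0.12, Mup14 0.34 and Ghr 0.085. Leaving out each library gave ranges of -0.53 to 0.13 for Mup1, -0.12 to 0.68 for Mup2, -0.40 to 0.065 for Mup7, -0.036 to 0.43 for Mup10, -0.069 to 0.34 for Mup5, -0.29 to 0.34 for Mup14, -0.17 to 0.11 for Ghr and -0.31 to 0.26 for Zhx2. Rescaling moved the median of all genes by 0.18 on the log2 scale; relative to it 7 of the 10 genes were negative, Mup7 at -0.11. The causes were not tested.

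Over all genes, 20 were called higher and 17 lower. Higher calls were 13 with a pseudocount of 0.1, 0 without a filter, 53 after rescaling (75.7% of calls, against 54.1%) and 326 with weights; leaving out each library gave 0 to 154. Lower calls were 2 without a filter and 237 with weights; leaving out each library gave 2 to 88. The log2 ratio of the summed FPKM, -0.35, was -0.12 after rescaling, -0.19 over every numbered Mup row and -0.53 to -0.16 with each library left out, moves smaller than the pooled SD of the log2 sums (0.286); the share of all FPKM held by every numbered Mup row had a log2 ratio of 0.05. Same-numbered libraries did not all deviate together (correlations 0.220, -0.075 and 0.301). With 3 libraries per group these values cannot settle whether the numbers pair the mice. With the replicate block 27 genes were called higher and 23 lower, with 0 of the 10 among them. With 3 against 3 mice an exact permutation test cannot go below 0.1. Low depth limits Mup10 and the rows below it.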

Other observations

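Among 27 Mup pseudogene rows, which lie outside the comparisons above, Mup-ps19 had 3.21, 3.66 and 1.21 FPKM in double knockout livers, against 5.25, 3.96 and 14.5 FPKM in controls (limma adjusted p = 0.312). The row that GENCODE M21 names Mup22, whose 100-base windows are all shared with other Mup genes, had 238, 188 and 112 FPKM in double knockout livers, against 151, 164 and 318 FPKM in controls (limma adjusted p = 0.811). Both were chosen after their values were seen.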
